A study of Mus musculus with 28 samples.

Results

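The genes described here are 10 mouse germline genes that somatic cells normally keep silent: Hormad1, Sycp1, Sycp3, Dazl, Ddx4, Mael, Tdrd1, Stk31, Slc25a31 and Tex101. They were taken by name from a list drawn up on what is known of their function, and they make up 10 of the 49554 genes on chromosomes 1 to 19 and X of the gene table used. For each gene, every enriched island that touched the stretch from gene start to gene end plus 2 kb on both sides was read in each library. Chromatin immunoprecipitation and sequencing were used on H3K9me3, the trimethylated lysine 9 of histone H3 that is typical of silent chromatin, and on H3K9Ac, the acetylated form of the same lysine that is typical of active promoters. It used 2 mouse tumor lines, the colon adenocarcinoma line MC38 and the melanoma line B16OVA (called B16 here), which carries ovalbumin. In each line, Setdb1 KO cells had received the pCRISPR-v2-puro construct with a guide against Setdb1, and control cells the same construct without a guide, so that all cells were transduced and were kept in puromycin. The labels do not say whether the KO cells were a pool or a clone. The 4 groups were MC38 KO, MC38 control, B16 KO and B16 control, with 3 numbered libraries of each mark per group and 24 in all. Per the labels, fewer cells were used for H3K9Ac than for H3K9me3, and the chromatin was cut with micrococcal nuclease and briefly sonicated.

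Germline genes serve meiosis, the protection of the germline genome against transposons, and the making of eggs and sperm. Many of them have CpG-rich promoters that are methylated in somatic tissues, and an E2F6 and MGA complex (PRC1.6) is known to recruit repressors to a group of them through E2F and E-box sequences. SETDB1, the enzyme removed here, trimethylates H3K9 and is known for silencing endogenous retroviruses and, in mouse embryonic stem cells, a number of germline genes. Tumors can switch single germline genes on again, and the products are then called cancer-testis antigens.

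The promoters below are those of some of the genes, and they differ in the marked motifs they hold. They were read from the RefSeq promoter table of GRCm38.p6, the assembly of mm10, 5′ to 3′ on the gene's strand, and end 30 bases after the start annotated there. At Ddx4 and Stk31 that start lies inside the outer 5′ end of the gene, from which all distances here are measured. Capitals mark the E2F core, whose letters are TCCCGC and which reads as GCGGGA where it lies on the opposite strand, and the E-box, whose letters are CACGTG on either strand. Hormad1, Stk31 and Tex101 are shown because they were the genes with H3K9Ac over the 5′ end in any library, Ddx4 because it had the closest H3K9me3, and Dazl as a promoter with neither motif. They lie at chr3:95559427-95559706 (plus strand), chr6:49395289-49395568 (plus), chr7:24672021-24672300 (minus), chr13:112652281-112652560 (minus) and chr17:50293591-50293870 (minus).
Hormad1: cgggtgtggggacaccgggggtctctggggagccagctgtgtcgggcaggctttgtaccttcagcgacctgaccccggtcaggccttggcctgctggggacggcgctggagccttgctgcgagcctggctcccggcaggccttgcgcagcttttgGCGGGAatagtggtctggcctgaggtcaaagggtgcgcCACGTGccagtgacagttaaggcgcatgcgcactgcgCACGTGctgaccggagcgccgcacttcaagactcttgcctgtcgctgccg
Stk31: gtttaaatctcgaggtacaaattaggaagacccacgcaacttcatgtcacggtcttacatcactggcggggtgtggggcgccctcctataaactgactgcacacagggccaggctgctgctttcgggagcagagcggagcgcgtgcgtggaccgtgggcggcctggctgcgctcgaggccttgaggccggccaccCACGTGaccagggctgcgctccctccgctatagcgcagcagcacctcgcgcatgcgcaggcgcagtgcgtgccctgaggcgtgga
Tex101: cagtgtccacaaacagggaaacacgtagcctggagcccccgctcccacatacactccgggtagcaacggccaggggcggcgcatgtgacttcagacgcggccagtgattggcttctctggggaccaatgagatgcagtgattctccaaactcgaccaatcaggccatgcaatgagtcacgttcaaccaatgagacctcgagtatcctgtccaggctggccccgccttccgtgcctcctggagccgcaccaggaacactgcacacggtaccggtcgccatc
Ddx4: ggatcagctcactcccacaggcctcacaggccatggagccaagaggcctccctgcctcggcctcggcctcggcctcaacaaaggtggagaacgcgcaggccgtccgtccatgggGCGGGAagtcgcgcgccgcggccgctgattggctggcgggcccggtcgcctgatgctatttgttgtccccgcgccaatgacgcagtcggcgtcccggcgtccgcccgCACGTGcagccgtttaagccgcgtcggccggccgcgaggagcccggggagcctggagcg
Dazl: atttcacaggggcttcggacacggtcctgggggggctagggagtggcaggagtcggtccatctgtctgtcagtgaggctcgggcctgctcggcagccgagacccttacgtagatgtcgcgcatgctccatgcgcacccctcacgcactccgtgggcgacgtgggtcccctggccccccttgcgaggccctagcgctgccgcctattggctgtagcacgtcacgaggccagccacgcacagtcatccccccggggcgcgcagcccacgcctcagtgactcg

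The E-box stood in 8 of the 10 promoters (80%), against 7.69% of 17274 protein-coding promoters of the same length. The E2F core stood in 6 of 10 (60%), against 24.5%, and both motifs in 6 of 10, against 2.51%. Hormad1 held 1 E2F core and 2 E-boxes, Ddx4 1 of each, and Stk31 1 E-box, while Dazl and Tex101 held neither. The matches of the 10 genes did not overlap each other. Among 26 other meiosis genes the E2F core was as frequent (61.5%) and the E-box was not (7.69%). The E-box stood in 33.3% of 15 other piRNA pathway promoters and 20.8% of 24 other germ cell and oocyte promoters. There the E2F core stood in 13.3% and 29.2%. The median ratio of observed to expected CpG was 0.76 in the 10 promoters, against 0.57 in protein-coding promoters. It was 0.68, 0.6 and 0.42 in the other meiosis, piRNA pathway and germ cell lists. In 21 PRC1.6 repressors it was 0.83, and in 8 housekeeping genes 0.78. The E2F core stood in 42.9% of these repressor promoters and 37.5% of the housekeeping promoters, and the E-box in 14.3% and 0%. These matches describe letters in the reference sequence, and binding was not measured.

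The H3K9me3 libraries held 15200766 to 45419584 reads in islands that covered 215 to 563 Mb, with MC38 KO 3 the lowest in cover and MC38 KO 1 the highest. The H3K9Ac libraries held 28453371 to 78087809 island reads over 380 to 470 Mb. The smallest islands of a library held 29 to 49 reads (H3K9me3) and 31 to 62 reads (H3K9Ac), so a gene listed at 0 had no island called, which is no measured absence of the mark. Levels are given as RPM, island reads apportioned to the gene region per 1000000 reads counted in gene regions after TMM scaling, and they are not divided by gene length. Fewer cells with a mark and less mark per cell cannot be told apart in such bulk samples. Nothing in the labels says that the libraries came from separate cultures, so p-values measure the spread between these libraries. The lines matched their labels at most of the melanocyte genes with a mapped 5′ end. The 5′ ends of Mitf, Dct, Tyr and Tyrp1 lay under H3K9Ac islands in all 6 B16 libraries. Tyr, Tyrp1 and Dct had no H3K9Ac island in any MC38 library, while the 5′ end of Mitf lay under one in every MC38 library. The summed H3K9Ac level of the 4 melanocyte genes with a mapped 5′ end was 104 to 256 RPM in MC38 KO, 134 to 234 in MC38 control, 705 to 1062 in B16 KO and 730 to 1268 RPM in B16 control libraries. Of 7 epithelial markers with a mapped 5′ end, 5 lay under islands in all MC38 KO libraries, 3 in all MC38 control libraries and 1 in all libraries of each B16 group. Over whole gene regions, edgeR's test called H3K9Ac lower in MC38 than in B16 at 8 of 8 melanocyte markers (16.5% of all genes). It called 1 of 9 epithelial markers higher in MC38, Krt8 (16.7% of all genes), and 0 lower. Among 7 germ cell markers with a mapped 5′ end, Gfra1 and Zp3 lay under islands in every group and the others did not. The loss of Setdb1 itself cannot be checked here, since neither mark reads the gene's product.

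The 5′ ends of the 10 genes were seldom under H3K9Ac islands and, like most 5′ ends, were free of H3K9me3 islands. An H3K9me3 island covered the 5′ end in 0 of 120 pairs of gene and library, where protein-coding genes had 2.71% to 7.72% of their 5′ ends covered per library. In any library 20.4% of protein-coding 5′ ends were covered. That share was 0% for PRC1.6 repressors and housekeeping genes and 11.5% to 26.7% for the other germline lists. A count of 0 is near these shares for 10 genes. An H3K9Ac island covered the 5′ end in 7 of 120 pairs, or at 0% to 20% of the 10 genes per library. Protein-coding genes had 54.1% to 59.1% covered. The other piRNA pathway and germ cell lists had 13.3% to 33.3% and 12.5% to 25% covered, and the other meiosis list up to 42.3%. Within 1 kb of the 5′ end, H3K9Ac islands were found at 0% to 30% of the 10 genes per library, against 58.5% to 63.8% of protein-coding genes, 34.6% to 61.5% of 26 other meiosis genes and 33.3% to 60% of 15 other piRNA pathway genes. The range was 12.5% to 45.8% for 24 other germ cell and oocyte genes, which overlaps that of the 10 genes. None of the 10 had such an island in all 12 libraries, as 50.3% of protein-coding genes did. In the other meiosis, piRNA pathway and germ cell lists 5 of 26, 3 of 15 and 3 of 24 genes did. A count of 0 in 10 is near the shares of these lists. Within 1 kb, H3K9me3 islands were found at 6 of the 10 genes in some library (60%, against 31.7% of protein-coding genes) and in 15 of 120 pairs (12.5%, against 9.35% of the pairs of protein-coding genes). The other meiosis, piRNA pathway and germ cell lists had 12.2%, 13.3% and 15.3% of their pairs.

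**Figure D1:**
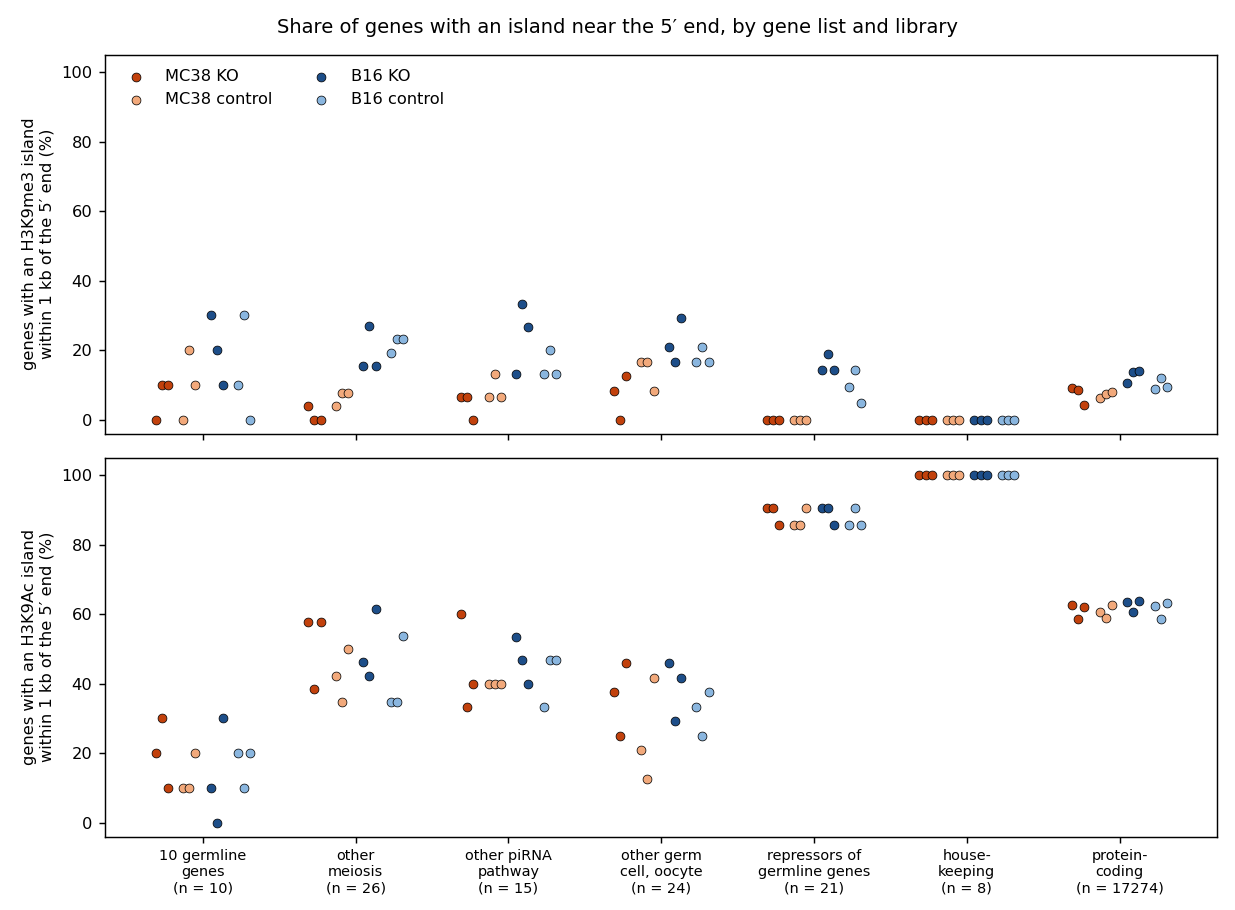
Share of 5′ ends with an island within 1 kb (percent, vertical axis) in each library, for the 10 germline genes and for the gene sets they are set beside, H3K9me3 and H3K9Ac apart; each point is 1 library. For H3K9Ac the 10 genes lie between 0% and 30%, below the protein-coding genes at 58.5% to 63.8%. Their range overlaps that of the other germ cell and oocyte genes at 12.5% to 45.8%.

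Over the whole gene regions, flanks included, the marks were more frequent. H3K9me3 islands occurred in all 12 libraries at 3 of the 10 genes, Mael, Sycp1 and Stk31 (30%, against 6.57% of protein-coding genes), and in no library at 1, Sycp3 (10%, against 45.1%). In the other meiosis, piRNA pathway and germ cell lists, 21.2%, 21.1% and 6.25% of genes had them in all 12 libraries. No library had them at 21.2%, 31.6% and 28.1%. H3K9Ac islands occurred in all 12 libraries at the region of Hormad1 alone (10%, against 63.4%), where the stretch shared by all 12 lay past the gene's 3′ end, and in no library at Ddx4, Mael and Sycp1 (30%, against 17.3%). For the same lists the H3K9Ac shares were 60.6%, 73.7% and 28.1% in all 12 libraries, and 6.06%, 0% and 31.2% in none. The 10 genes are long, with a median of 32.8 kb against 17.3 kb for 21631 protein-coding genes, and long regions meet more islands; the part of length in these shares was not tested.

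None of the germline genes passed the test for a change of H3K9me3 with Setdb1 KO. Of the 9 genes with enough reads, edgeR's quasi-likelihood test called 0 in MC38 (background 0.136% of 25677 genes), 0 in B16 (0.312%) and 0 for the KO effect in MC38 minus that in B16 (0.397%). At an unadjusted edgeR p under 0.05 there was 1 gene in MC38 (Hormad1), 0 in B16 and 1 for the difference (Hormad1). Of all genes 6.85%, 7.73% and 9.38% passed there. DESeq2 called 0 in each, and 9.03%, 10.7% and 14.3% of all genes. No gene had all 3 KO libraries above or all 3 below the control libraries in either line. Across all genes, 0.596% (above) and 1.73% (below) did so in MC38, and 5.89% (above) and 9.44% (below) in B16. Among genes with reads in both groups, the median log2 change was -0.11 over 6 of the germline genes and -0.04 over 15191 genes in MC38, and 0.15 over 7 germline genes and 0.06 over 16728 genes in B16.

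Some of the genes were called between the lines. In H3K9me3, 3 of the 9 tested genes were called between MC38 and B16 over both genotypes, 1 higher in MC38 (Ddx4) and 2 lower (Stk31 and Hormad1), against a background of 23.1% of all genes (9.14% higher and 13.9% lower). A share of 3 in 9 is near that background for so few genes. The median log2 difference, MC38 over B16, was -0.85 over the 6 germline genes with reads in both lines and -0.15 over 16214 genes. Every MC38 library lay below every B16 library at Stk31 and Hormad1, as at 10.3% of all genes, and above at none of the 9, as at 5.38% of all genes.

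**Figure D2:**
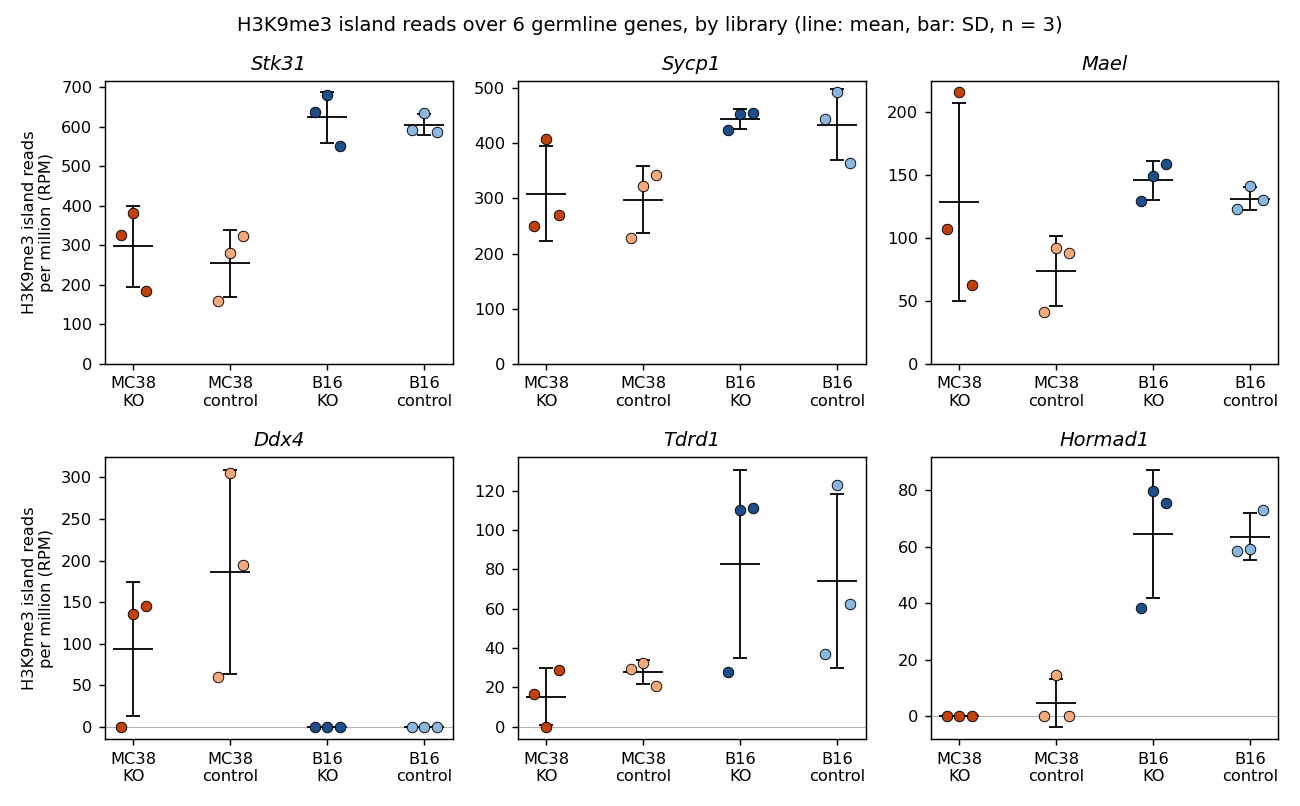
H3K9me3 level of Stk31, Sycp1, Mael, Ddx4, Tdrd1 and Hormad1 (RPM, vertical axis) in the 12 libraries by group, with MC38 KO and MC38 control left of B16 KO and B16 control; points are libraries, horizontal lines the group means and bars the SD. Stk31 lies between 158 and 382 RPM in MC38 and between 552 and 681 RPM in B16, and Ddx4 has islands in MC38 alone.

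Among the genes of the meiotic chromosome axis, Hormad1, a HORMA domain protein of the unsynapsed axis, carried H3K9me3 in B16 but hardly in MC38. Its H3K9me3 level was 0, 0 and 0 RPM in the MC38 KO libraries and 0, 14.7 and 0 RPM in the MC38 control libraries. In B16 it was 38.3, 79.7 and 75.4 RPM in KO libraries and 58.4, 59 and 73.1 RPM in control libraries. A single MC38 library thus had an island, and the B16 groups overlapped. MC38 was lower than B16 (edgeR adjusted p = 0.0191), and no fold is given because MC38 KO was at 0. Between the control libraries alone, in the same fit to all 12 libraries, edgeR's adjusted p was 0.272. In MC38 the KO libraries, all at 0, gave an unadjusted p of 0.0119 and an adjusted p of 0.567 in edgeR's test. All 6 B16 libraries shared 2 kb of H3K9me3 at chr3:95571801-95573800, inside the gene and 12.1 to 14.1 kb from its 5′ end.

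Sycp1, the transverse filament protein of the synaptonemal complex, carried H3K9me3 in every library. Its level was 250, 407 and 269 RPM in MC38 KO and 229, 322 and 342 RPM in MC38 control libraries. In B16 it was 424, 453 and 455 RPM in KO and 445, 493 and 364 RPM in control libraries. KO and control libraries overlapped in both lines, with log2 changes of 0.05 (SE 0.35) in MC38 and 0.03 (SE 0.35) in B16. MC38 averaged 303 ± 66.3 RPM and B16 439 ± 43.3 RPM (SD, n = 6 each), a difference that was not called (log2 -0.54, SE 0.25, edgeR adjusted p = 0.122). Of its 122 kb region, 11.6 kb in 5 segments lay under islands in all 12 libraries, the longest 3.6 kb at chr3:102882201-102885800, 50.3 to 53.9 kb into the gene. A pseudogene, Gm33866, lies in the gene body. Sycp3, a protein of the axial and lateral elements, had no H3K9me3 island in any library, and its 3′ part overlaps Chpt1 on the other strand.

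Ddx4 and Dazl encode RNA-binding proteins of early germ cells. Ddx4, the mouse vasa homolog and a DEAD-box RNA helicase, had H3K9me3 in MC38 alone. Its level was 0, 135 and 145 RPM in MC38 KO and 59.2, 305 and 195 RPM in MC38 control libraries, and 0 in all 6 B16 libraries. The KO library without an island, MC38 KO 1, was the library with the widest H3K9me3 cover. MC38 was higher than B16 (edgeR adjusted p = 0.0129), and no fold is given because B16 was at 0. In the same fit to all 12 libraries, edgeR's adjusted p was 0.0707 between the control libraries alone and 0.0733 between the KO libraries alone. Between KO and control in MC38 the log2 change was -1.0 with an SE of 1.98. In the 5 MC38 libraries with islands, 13.8% to 76% of the 58.3 kb region was covered. In 4 of them an island ended within 1 kb before the 5′ end, in MC38 control 2 from -5.17 to -0.37 kb of it, and no H3K9me3 island reached the promoter sequence printed above. Dazl, which binds mRNAs and promotes their translation, had weak H3K9me3 in both lines. Its level was 21.4, 17.6 and 1.97 RPM in MC38 KO and 27.9, 12 and 9.44 RPM in MC38 control libraries, and 37.4, 8.3 and 22.6 RPM in B16 KO and 0, 25.7 and 0 RPM in B16 control libraries. The groups overlapped in both lines, and no stretch was shared by all libraries of a line.

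Mael, Tdrd1 and Stk31 belong to the piRNA and nuage proteins. Stk31, a tudor domain protein with a kinase-like domain, carried H3K9me3 in every library and more of it in B16. Its level was 325, 382 and 184 RPM in MC38 KO and 158, 281 and 322 RPM in MC38 control libraries. In B16 it was 637, 681 and 552 RPM in KO and 592, 635 and 586 RPM in control libraries. The lines did not overlap, and the genotypes did. MC38 averaged 275 ± 87.2 RPM and B16 614 ± 46.1 RPM (SD, n = 6 each), with a log2 difference of -1.16 (SE 0.28, edgeR adjusted p = 0.0178). In the same fit to all 12 libraries, edgeR's adjusted p was 0.0942 between the control libraries alone and 0.13 between the KO libraries alone. KO against control gave log2 changes of 0.23 (SE 0.39) in MC38 and 0.04 (SE 0.39) in B16.

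The line difference at Stk31 was also one of cover. Islands lay over 67.1%, 70.5% and 25.8% of the region in MC38 KO and 27.9%, 49.7% and 60.3% in MC38 control libraries. In B16 they lay over 91.4%, 93% and 91.7% in KO and 87.1%, 87.7% and 89.1% in control libraries. The 6 B16 libraries shared 64.8 kb (83.1% of the region), of which 25.8 kb ran unbroken at chr6:49444601-49470400, from 49.1 to 74.9 kb of the 5′ end. All 12 libraries shared 6.6 kb, the longest piece 3.2 kb at chr6:49415601-49418800. The lowest MC38 cover, 25.8%, was in MC38 KO 3, the library with the least H3K9me3 cover. In B16 the nearest island began 3.5 to 5.89 kb from the 5′ end.

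Mael, the mouse maelstrom protein that takes part in transposon silencing, had 107, 216 and 62.9 RPM of H3K9me3 in MC38 KO and 41.5, 91.6 and 88.2 RPM in MC38 control libraries. In B16 it had 129, 149 and 159 RPM in KO and 123, 141 and 130 RPM in control libraries. KO and control libraries overlapped in both lines. KO against control gave log2 changes of 0.80 (SE 0.55, edgeR adjusted p = 0.93; 0.20 without MC38 KO 2 and 1.13 without MC38 KO 3) in MC38 and 0.15 (SE 0.55) in B16, and MC38 against B16 -0.51 (SE 0.39, adjusted p = 0.363). All 12 libraries shared 2.6 kb at chr1:166218401-166221000, 17.7 to 20.3 kb into the gene. Tdrd1, a tudor protein that binds PIWI proteins, had 16.6, 0 and 28.8 RPM in MC38 KO and 29.4, 32.5 and 20.8 RPM in MC38 control libraries. In B16 it had 27.6, 110 and 111 RPM in KO and 36.8, 123 and 62.6 RPM in control libraries. The B16 libraries ran higher but with a wide spread that reached down to MC38 values (log2 -1.94, SE 1.05, edgeR adjusted p = 0.183). All 6 B16 libraries shared 2.4 kb at chr19:56846201-56848600, 20 to 22.4 kb into the gene, and 5 of 6 MC38 libraries had an island between 19.43 and 24.03 kb.

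**Figure D3:**
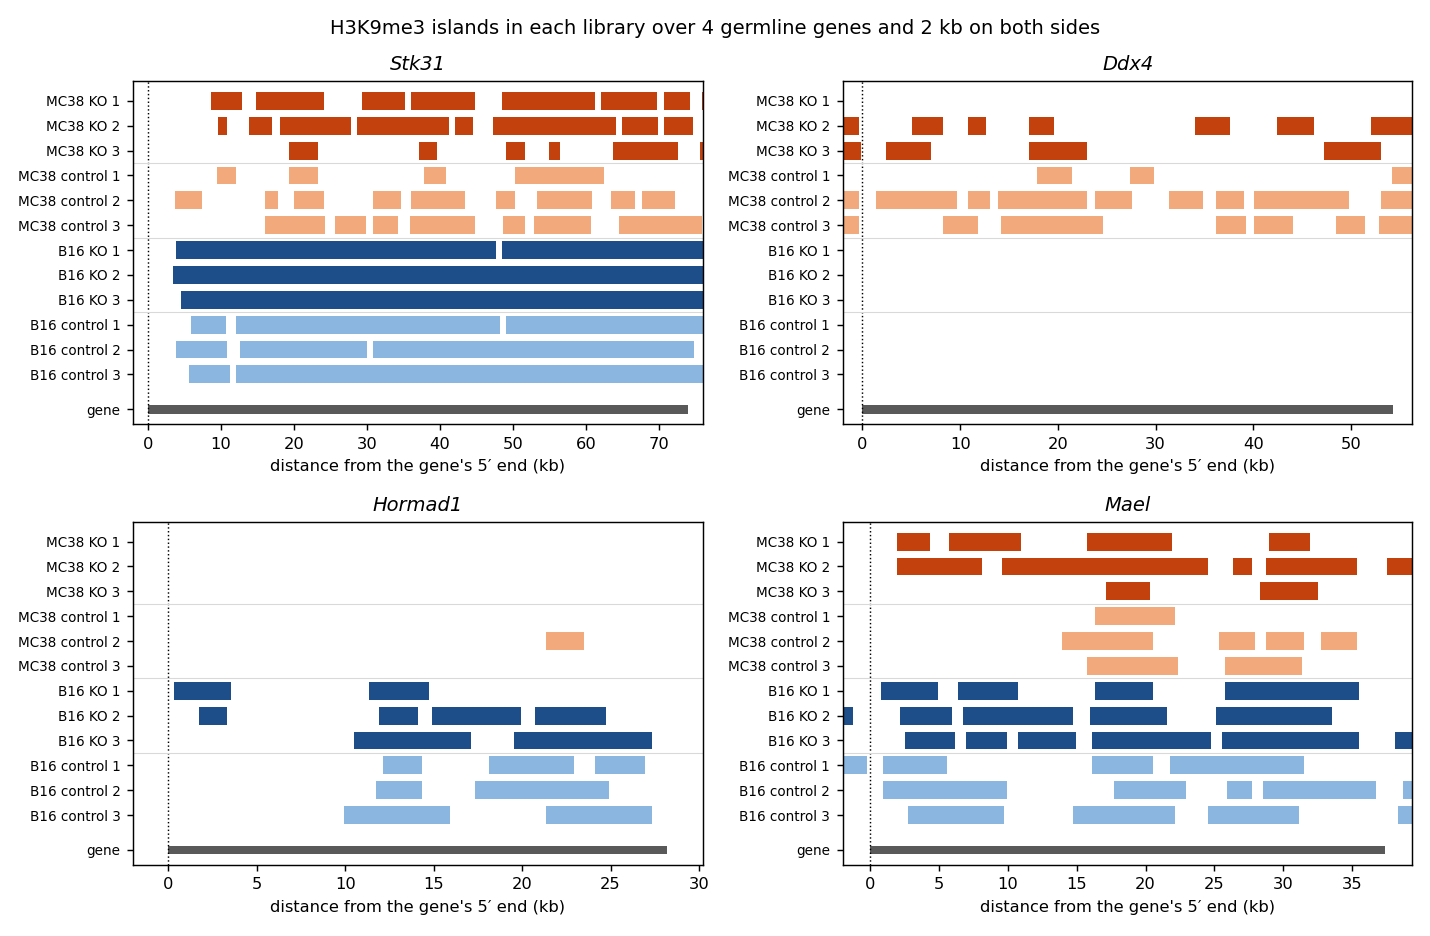
H3K9me3 islands of each library (rows, MC38 KO and MC38 control above B16 KO and B16 control) along Stk31, Ddx4, Hormad1 and Mael, against distance from the 5′ end (kb, horizontal axis); a bar is an island. Stk31 is covered for 64.8 kb in all 6 B16 libraries, and Ddx4 is marked in 5 MC38 libraries alone.

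The genes of later germ cells had almost no H3K9me3. Slc25a31, the ADP/ATP carrier of testis mitochondria, had 8.75 RPM in B16 KO 2 and 6.23 RPM in B16 control 2 and no island elsewhere. Tex101, a surface glycoprotein of spermatogenic cells and sperm, had 19.7 RPM in MC38 control 2 and no island elsewhere. Over the 9 genes with islands, the median read density of a gene's islands was 0.889 to 1.1 times that of the median island of the same library.

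H3K9Ac was not called changed by Setdb1 KO at any of the 7 tested germline genes. The edgeR test called 0 in MC38 (background 0.126% of 33363 genes), 0 in B16 (0.0839%) and 0 for the difference of the KO effects (0.174%). With the replicate number as a block these backgrounds were 0.0749% in MC38 and 0.051% in B16, and the count over the germline genes was again 0. At an unadjusted edgeR p under 0.05 there was 1 gene in each of the 3 comparisons, Slc25a31 each time. Of all genes 3.13%, 4.12% and 4.27% passed there. DESeq2 called 0 in MC38, 1 in B16 and 1 for the difference, again Slc25a31, and 2.87%, 3.36% and 4.56% of all genes. The median log2 change was -0.01 over 6 germline genes and -0.00 over 28760 genes in MC38, and 0.50 over 5 germline genes and -0.02 over 28903 genes in B16. Between the lines, 2 of 7 were called higher in MC38, Hormad1 and Dazl, and none lower, against 16.7% of all genes higher, 16.5% lower and 33.2% called in either direction. The median log2 difference was 0.30 over 6 germline genes and -0.01 over 28577 genes.

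**Figure D4:**
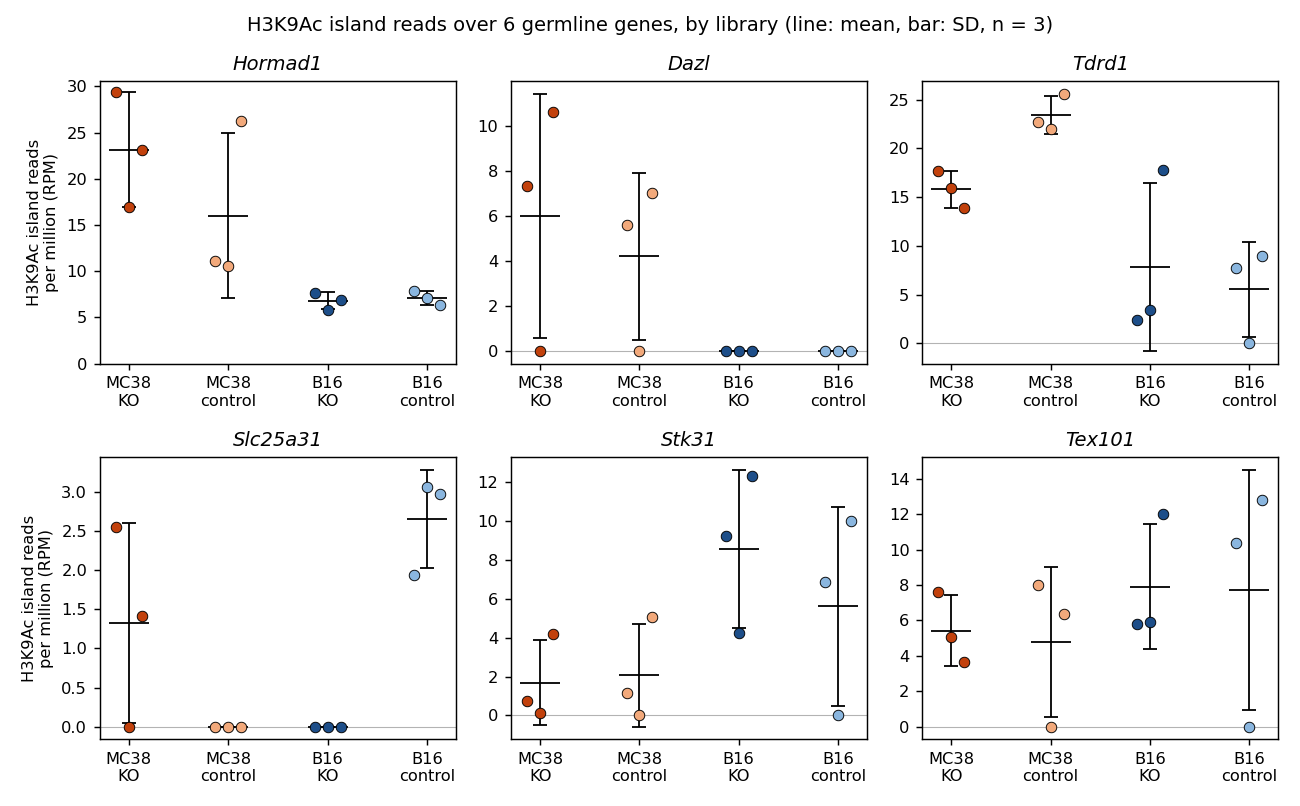
H3K9Ac level of Hormad1, Dazl, Tdrd1, Slc25a31, Stk31 and Tex101 (RPM, vertical axis) in the 12 libraries by group, with MC38 KO and MC38 control left of B16 KO and B16 control; points are libraries, horizontal lines the group means and bars the SD. Hormad1 lies between 10.6 and 29.4 RPM in MC38 and between 5.86 and 7.88 RPM in B16, and Dazl has islands in MC38 alone.

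Hormad1 was called between the lines in both marks, with H3K9Ac higher and H3K9me3 lower in MC38. Its H3K9Ac level was 29.4, 17 and 23.1 RPM in MC38 KO and 11.1, 10.6 and 26.3 RPM in MC38 control libraries. In B16 it was 7.67, 5.86 and 6.88 RPM in KO and 7.88, 7.12 and 6.37 RPM in control libraries. Every MC38 library lay above every B16 library, as at 12.3% of all genes (13% lay below), while the genotypes overlapped within each line. MC38 averaged 19.6 ± 7.91 RPM and B16 6.97 ± 0.769 RPM (SD, n = 6 each), with a log2 difference of 1.47 (SE 0.26, edgeR adjusted p = 0.00172). KO against control gave 0.53 (SE 0.36) in MC38 and -0.07 (SE 0.36) in B16.

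The positions separate the H3K9Ac of Hormad1 from that of its neighbors. Golph3l, a protein-coding gene on the same strand, starts at position 95588915, inside the 2 kb after the end of Hormad1. The lncRNA Gm40097 on the other strand runs over positions 95585881 to 95588817 and overlaps the end of Hormad1. All 12 libraries had an island over both of these starts, which the islands do not tell apart. In B16 that island, at chr3:95588001-95590600 in 5 of the 6 libraries, was the only island of the region. In MC38 further islands lay over the body of the gene in all 6 libraries. They covered the 5′ end, with the promoter sequence printed first above, in MC38 KO 1 (-2.08 to 3.32 kb), MC38 KO 3 (-8.88 to 2.72 kb) and MC38 control 3 (-7.48 to 1.32 kb). Without the 2 kb flanks, which was added with the data in view, the line difference had an adjusted p of 0.0166 by edgeR, and over 2 kb around the 5′ end 0.0373. With only islands at or above the median read density of their library, the gene was not called (log2 -0.16, adjusted p = 0.713): the island at the neighbors' starts reached that median in every library, and of the MC38 islands elsewhere in the region only the 1.2 kb island of MC38 control 3 did.

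Dazl had H3K9Ac in 4 MC38 libraries. Its level was 7.34, 0 and 10.6 RPM in MC38 KO and 5.61, 0 and 7.01 RPM in MC38 control libraries, and 0 in all 6 B16 libraries. The nearest island inside the gene began 1.22 to 2.22 kb from the 5′ end, and MC38 control 3 had a further island before it (-1.98 to -1.18 kb). MC38 was called higher than B16 (edgeR adjusted p = 0.0317). The call was lost in 10 of 12 fits that left out a library, with adjusted p-values of 0.0222 to 0.0637, and held without MC38 KO 2 or without MC38 control 2, the libraries at 0. Ddx4, Mael and Sycp1 had no H3K9Ac island in any library. At Ddx4 the nearest lay 6.97 to 7.57 kb from the 5′ end in all 12 libraries.

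Tdrd1 had 17.7, 15.9 and 13.9 RPM of H3K9Ac in MC38 KO and 22.7, 22 and 25.6 RPM in MC38 control libraries. In B16 it had 2.38, 3.39 and 17.8 RPM in KO and 7.7, 0 and 8.92 RPM in control libraries. Every MC38 KO library lay below every MC38 control library, as at 1.87% of all genes (1.92% lay above), but the test gave a log2 change of -0.56 with an SE of 1.31. An island ended within 1 kb before the 5′ end in all 3 MC38 control libraries (-0.57, -0.37 and -0.57 kb) and in MC38 KO 2 (-0.37 kb), and in no B16 library. MC38 against B16 gave a log2 difference of 1.55 (SE 0.95, edgeR adjusted p = 0.244).

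**Figure D5:**
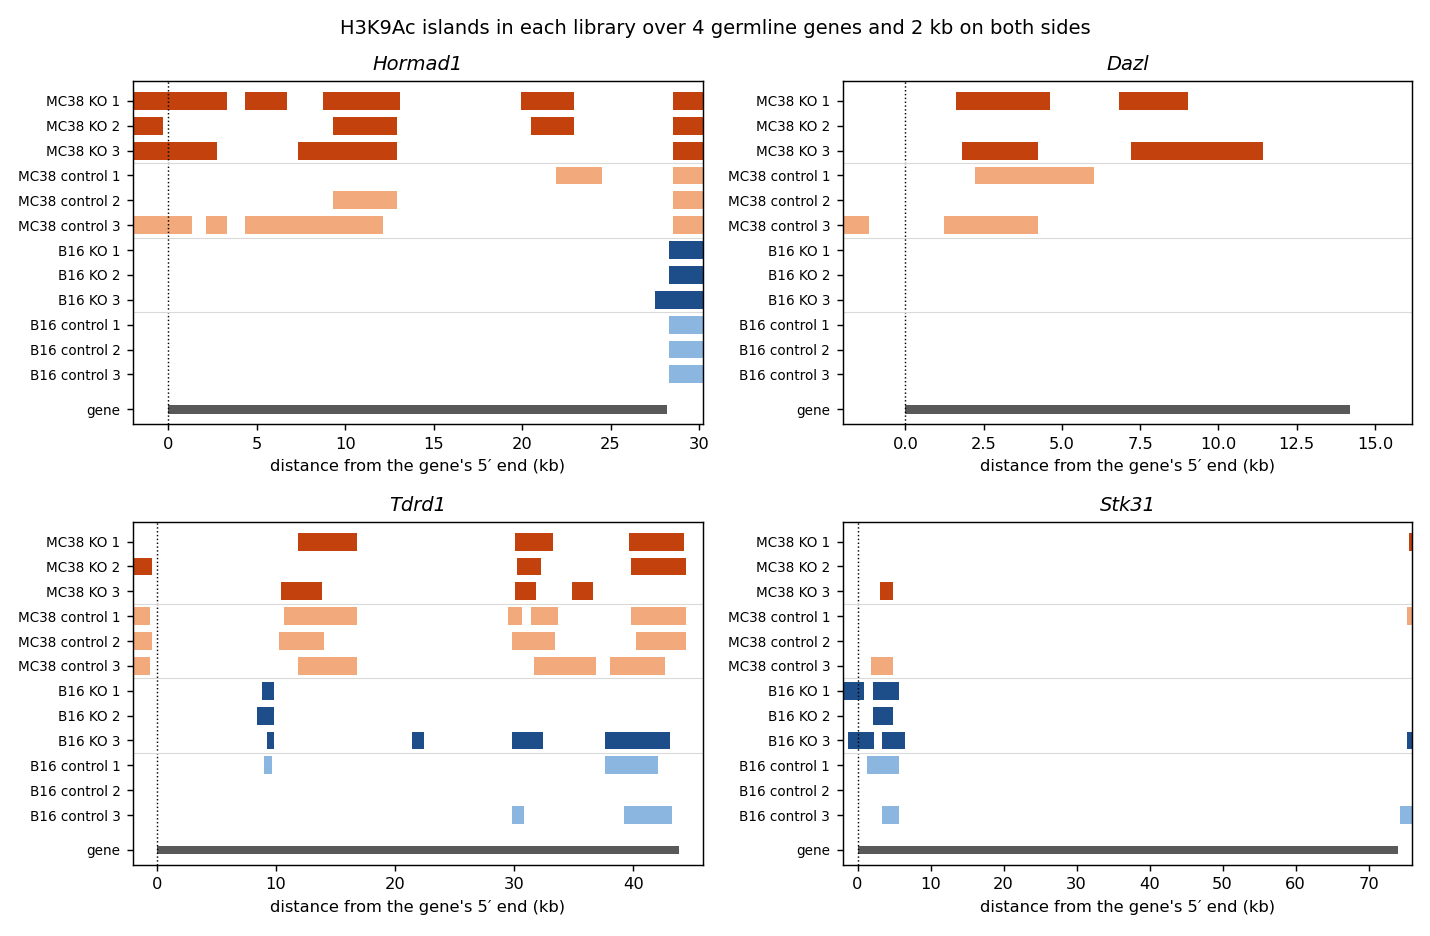
H3K9Ac islands of each library (rows, MC38 KO and MC38 control above B16 KO and B16 control) along Hormad1, Dazl, Tdrd1 and Stk31, against distance from the 5′ end (kb, horizontal axis); a bar is an island. Hormad1 has the island past its 3′ end in all 12 libraries and further islands in MC38 alone.

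Stk31 had H3K9Ac just inside its 5′ end, mainly in B16. Its level was 0.741, 0.148 and 4.17 RPM in MC38 KO and 1.16, 0 and 5.05 RPM in MC38 control libraries, and 9.21, 4.22 and 12.3 RPM in B16 KO and 6.85, 0 and 10 RPM in B16 control libraries. An island began 1.3 to 3.3 kb after the 5′ end in 5 of 6 B16 libraries, and in B16 KO 1 and B16 KO 3 a further one covered the 5′ end (-2.1 to 0.89 kb and -1.3 to 2.29 kb). No B16 control library had an island over it. In B16 the KO library was above the control library of the same number in 3 of 3 pairs. B16 KO 2 was set there against B16 control 2 at 0, a library in which Tdrd1 and Tex101 had no island either. The share of all genes with such a pattern, over the region or over the 5′ end, was not counted. The log2 change was 0.61 (SE 2.13, edgeR adjusted p = 1) without the replicate block and 2.73 (adjusted p = 1, unadjusted p = 0.253) with it, and was not called in either fit. The difference between the lines was not called (log2 -1.9, SE 1.56, edgeR adjusted p = 0.396). In the H3K9me3 libraries of B16, which are separate libraries, that mark covered most of the gene from 3.5 to 5.89 kb onwards.

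Slc25a31 had H3K9Ac islands that ended before its 5′ end. Its level was 2.56, 0 and 1.42 RPM in MC38 KO and 0, 0 and 0 RPM in MC38 control libraries, and 0, 0 and 0 RPM in B16 KO and 1.94, 3.07 and 2.98 RPM in B16 control libraries. Every B16 KO library lay below every B16 control library, as at 3.35% of all genes (4.73% lay above). The unadjusted p-values of edgeR's test were 0.0203 in MC38, 0.0147 in B16 and 0.00374 for the difference of the KO effects, whose adjusted p was 0.903. With the replicate block they were 0.078, 0.051 and 0.0229, with adjusted p-values of 1, 0.954 and 1. No fold is given, because MC38 control and B16 KO were at 0.

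At Tex101 and Sycp3 part of the H3K9Ac came from islands that reached in from outside the region. Tex101 had 7.6, 5.07 and 3.63 RPM in MC38 KO and 8.02, 0 and 6.35 RPM in MC38 control libraries, and 5.8, 5.94 and 12 RPM in B16 KO and 10.4, 0 and 12.8 RPM in B16 control libraries. They entered from beyond the 3′ end in every library with an island and reached over the 5′ end in B16 KO 3 and B16 control 3. Sycp3 had 3.98, 1.83 and 0 RPM in MC38 KO and 0, 5.51 and 1.2 RPM in MC38 control libraries, and 0, 0 and 7.03 RPM in B16 KO and 0, 0 and 1.21 RPM in B16 control libraries. Its islands lay before the 5′ end, between 1.21 and 5.41 kb inside the gene, or both. Groups overlapped for both genes. The H3K9Ac zeros of Stk31, Tdrd1 and Tex101 all fell in MC38 control 2 or B16 control 2. Those of Dazl, Sycp3 and Slc25a31 were spread over more libraries. The part of single libraries in this pattern was not tested. The median island of each gene had 0.771 to 1.09 times the read density of its library's median island.

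No gene of the other germline lists was called with Setdb1 KO either. Over the other meiosis, piRNA pathway and germ cell genes and the PRC1.6 repressors, 67 were tested in H3K9me3 and 95 in H3K9Ac, and edgeR called 0 in either line and 0 for the difference of the KO effects. Of all genes it called 0.136% (MC38), 0.312% (B16) and 0.397% (difference) in H3K9me3. In H3K9Ac these shares were 0.126%, 0.0839% and 0.174%. Counts of 0 are near such shares for so few genes. In H3K9me3, an unadjusted p under 0.05 was found for 10 genes in MC38 (14.9%, against 6.85% of all genes), 4 in B16 (5.97%, against 7.73%) and 8 for the difference (11.9%, against 9.38%). DESeq2 called 8, 3 and 10 there, and 9.03%, 10.7% and 14.3% of all genes. In H3K9Ac, an unadjusted p under 0.05 was found for 4 genes in MC38 (4.21%, against 3.13%), 4 in B16 (4.21%, against 4.12%) and 2 for the difference (2.11%, against 4.27%). DESeq2 called 3, 2 and 3 there, and 2.87%, 3.36% and 4.56% of all genes.

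Between the lines, H3K9me3 was lower in MC38 at 5 of 25 tested meiosis genes and higher at 0, where 13.9% of all genes were lower and 9.14% higher. Dmc1, the meiotic recombinase, averaged 69.5 ± 46.7 RPM in MC38 and 277 ± 23 RPM in B16 (SD, n = 6 each; log2 -2.0, SE 0.47, edgeR adjusted p = 0.0156). Among 12 piRNA pathway genes 1 was higher and 4 were lower. Mov10l1, an RNA helicase of piRNA biogenesis, averaged 85.4 ± 47 RPM in MC38 and 348 ± 72.3 RPM in B16 (log2 -2.01, SE 0.45, edgeR adjusted p = 0.0125). Piwil1, a PIWI protein, averaged 60.8 ± 52.1 RPM in MC38 and was at 0 in B16 (edgeR adjusted p = 0.00161), as Ddx4 was. Of 22 other germ cell genes 3 were higher and 5 lower, and of 8 repressors 0 were higher and 4 lower. Mga, the DNA-binding protein of PRC1.6, was among the lower, with 0.319 ± 0.782 RPM in MC38 and 78.7 ± 32.3 RPM in B16 (edgeR adjusted p = 0.00328).

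In H3K9Ac, 12 of 30 meiosis genes were higher in MC38 and 2 lower, where 16.7% of all genes were higher and 16.5% lower. Prdm9, which places meiotic recombination hotspots, averaged 25.5 ± 5.29 RPM in MC38 and 4.45 ± 1.07 RPM in B16 (SD, n = 6 each; log2 2.53, SE 0.21, edgeR adjusted p = 2.5e-05). Stra8, a gene of meiotic entry, was among the lower with 9.23 ± 5.85 RPM in MC38 and 42.3 ± 5.52 RPM in B16 (log2 -2.21, SE 0.39, adjusted p = 0.0018). Of 19 piRNA pathway genes 5 were higher and 4 lower, of 22 other germ cell genes 3 were higher and 1 lower, and of 24 repressors 6 were higher and 7 lower. E2f6, the DNA-binding E2F of PRC1.6, was among the lower with 34 ± 1.18 RPM in MC38 and 57.2 ± 2.81 RPM in B16 (log2 -0.75, SE 0.05, edgeR adjusted p = 1.05e-05).

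The genes of the other germline lists whose pattern came closest to the mean of the measured germline genes were Zar1 and Dppa3 in H3K9me3 (Pearson r = 0.66 each, 59 candidates and 9 genes averaged) and Mov10l1 and Syce3 in H3K9Ac (r = 0.89 and 0.88, 71 candidates and 7 genes averaged). Each r is over the 12 libraries of a mark, which share line, depth and island calling, and it is given as a description.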

How the data were processed

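H3K9me3 and H3K9Ac were profiled in 12 libraries each; the 4 input samples were not analysed here. Per the submitters' processing notes, the tools were cutadapt (version not given), Bowtie2 2.1.0, SAMtools 0.1.8, SICER 1.1 and deepTools 3.1.1, with the build mm10. Per the labels, the antibodies came from Diagenode (H3K9me3) and Cell Signaling Technologies (H3K9Ac), and the final PCR had 15 cycles. The authors deposited 1 list of SICER islands per library, made of 200 bp windows, and the deposited unit is a count of that library's reads in each island, not scaled between libraries. The control library used for island calling and the read filters are not given in the sources used here.

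Island reads were apportioned by overlap to gene regions and rounded, so genes that overlap share reads. Gene positions, strands and promoters came from RefSeq tables of GRCm38.p6, and all 10 genes matched. Each mark had its own fit over its 12 libraries, with the 4 groups as terms (R 4.3.3, edgeR 4.0.16 with limma 3.58.1, quasi-likelihood test, TMM scaling, a mean of at least 10 reads, Benjamini-Hochberg adjusted p under 0.05 over all genes). Descriptions used Python 3.11.15, pandas 2.3.3 and numpy 2.4.6. The fit was tested before use on simulated counts of B16 KO against control. These took only regions with islands in all 12 libraries of a mark. All genes had the same fixed spread (a dispersion of 0.05), which was not estimated from these data. It called 77% (H3K9me3) and 51% (H3K9Ac) of 2-fold changes and 100% of 4-fold changes, with 14 and 10 false calls. Genes without an island in some library were not simulated, so the check does not cover most of the 10 genes. Because the spread was fixed, the shares recovered need not hold for the remaining ones either. Alternatives were DESeq2 1.42.0, other scalings, filters, island and overlap rules, a replicate block, subsets of libraries and other gene regions. Results for control or KO libraries alone compare those groups within the fit to all 12 libraries, which sets their scaling and spread. The libraries of a line alone, and those left after leaving 1 out, were fitted anew. The 10 genes and all lists were chosen with earlier results of these data known, so no count over them is independent evidence. All 10 genes were named; of the other lists, up to 3 called genes per direction with the smallest p could be named, and per mark the 2 most similar genes over log2(RPM + 0.5).

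Same-numbered KO and control libraries of a line deviated together in H3K9Ac (r = 0.16 to 0.53 over 6 pairs) and not in H3K9me3 (r = -0.25 to 0.31). The numbers therefore pair the H3K9Ac libraries, on this check alone, since the labels state no shared day or culture. With the block, H3K9Ac calls over all genes numbered 25 in place of 42 in MC38, 17 in place of 28 in B16, and 35 in place of 58 for the difference of the KO effects. Intervals of counting error are not given, because PCR reads without molecular identifiers are not independent molecules.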

Additional observations from a re-analysis of the deposited data

How the results depend on the processing

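The count of germline genes called with KO stayed at 0 in both marks, both lines and the difference of the KO effects under all alternatives but 1. The exception was DESeq2 in H3K9Ac, which called 1 (Slc25a31) in B16 and 1 for the difference. It called 3.36% and 4.56% of all genes there. Leaving out each library in turn also gave 0 to 0. Between the lines, the 3 calls in H3K9me3 became 0 with control libraries alone, 1 with KO libraries alone (Hormad1) and 3 to 4 without a library. The 2 calls in H3K9Ac became 1 with control libraries alone, with KO libraries alone and with each island counted in full in the region that held most of it (Hormad1 each time), 1 with stricter islands (Tex101), and 1 to 2 without a library. The replicate block took Ddx4 in H3K9me3 to an adjusted p of 0.0515. Dazl in H3K9Ac lost its call with control libraries alone (0.133), with KO libraries alone (0.125), with islands counted in full (0.0567) and around the 5′ end (0.112). Without a library in turn, Stk31 (log2 -1.27 to -1.04), Ddx4 (adjusted p 0.000871 to 0.0331) and Hormad1 (0.000945 to 0.0433) kept their calls in H3K9me3, as Hormad1 did in H3K9Ac (log2 1.18 to 1.58). Stricter islands, those at or above their library's median read density, turned Hormad1 in H3K9Ac to -0.16. Another alternative took the reads counted in gene regions as the library size, without TMM scaling. It moves all H3K9me3 values of KO against control in B16 by -0.21 on the log2 scale, which turned Mael to -0.07, Sycp1 to -0.18 and Stk31 to -0.18. Without a library, the H3K9me3 KO change ran from 0.20 to 1.13 (Mael), from -0.20 to 0.18 (Sycp1) and from -0.02 to 0.48 (Stk31) in MC38, and from -0.05 to 0.17 for Sycp1 in B16.

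Counts over all genes moved more. In H3K9me3, KO in MC38 gave 35 calls, with 0 from the line alone, 1887 by DESeq2, 23 without flanks, 9 with islands counted in full, 0 with the replicate block and 5 with stricter islands. KO in B16 gave 80, with 0, 2240, 26 (in full), 6 (block) and 22 (stricter). The difference gave 102, with 2980 by DESeq2, 31 in full, 7 with the block and 17 stricter. The lines gave 5919, with 10966 by DESeq2, 2800 in full, 2383 with the block, 3277 stricter, 1832 from control and 2055 from KO libraries. In H3K9Ac, KO in MC38 gave 42, with 0 from the line alone, 874 by DESeq2, 18 around the 5′ end and 25 with the block. KO in B16 gave 28, with 0 from the line alone, 1024 by DESeq2, 43 in full and 17 with the block. The difference gave 58, with 1392 by DESeq2 and 35 with the block, and the lines 11070, with 6797 around the 5′ end, 6126 in full, 6472 from control and 5963 from KO libraries. Without a library the H3K9me3 counts ran from 10 (without B16 KO 3) to 154 (MC38 KO 2), 52 (MC38 control 3) to 165 (B16 control 1), 66 (B16 control 2) to 212 (MC38 KO 3) and 3477 (B16 control 2) to 5306 (MC38 KO 3), in the same order of comparisons. The H3K9Ac counts ran from 29 (B16 KO 1) to 119 (MC38 control 3), 17 (MC38 control 1) to 67 (B16 control 2), 48 (B16 KO 1) to 125 (MC38 control 3) and 9506 to 10349. The causes were not tested. Depth limits weak genes, since the smallest islands held 29 to 62 reads.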
